A study of Mus musculus with 4 samples.

Results

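The untreated baseline of cultured mouse gonocytes was described from the 2 arrays whose titles name them as controls, out of 4 arrays in the series. Gonocytes were taken from testes of mice 2 days after birth with magnetic beads that bind the surface protein THY1, and were then kept for 8 h in medium that held neither serum nor added growth factors and had no feeder cells beneath. Ethanol, the vehicle, was the one addition to the 2 control samples; the other 2 samples received 100 nM retinoic acid (RA) and are not analysed here. The labels do not give the strain, the number of animals or whether the control samples came from separate sorts, so the spread between them may be technical. Every sample came from about 75 ng of RNA that was amplified before hybridisation to a whole-genome mouse array. Genes were the unit of description: 18193 genes had at least 1 probe set that named them alone, and the brightest such probe set stood for the gene. All 18193 were ranked by the mean of log2(signal + 5) over both arrays, and below each pair of signals gives vehicle replicate 1 first and vehicle replicate 2 second. No test was made, since there is 1 group.

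Gonocytes are the germ cells of the newborn testis. They descend from primordial germ cells, pause in the cell cycle before birth, and around birth resume division and move to the tubule wall, where they become stem spermatogonia or enter differentiation directly. In the tubule they lie among Sertoli cells, and outside it lie peritubular muscle-like cells, Leydig cells, vessels, macrophages and mast cells. THY1 is carried by stem spermatogonia and also by T lymphocytes and some fibroblasts, so a sort for it can hold more than germ cells. In such bulk RNA, fewer cells of a type and less RNA per cell cannot be told apart.

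A background line was drawn from 73 genes for olfactory, vomeronasal and bitter taste receptors, which serve chemical senses in other organs. Their median signals were 2.19 and 2.71, and the line was put at the 95th percentile of their vehicle means, a signal of 23.0. Above it lay 12097 genes, 66.5% of those ranked, and 11673 genes (64.2%) lay above it on both arrays. The brightest 10% by construction, 1819 genes, began at a signal of 673. Between them lay 10278 middle genes, and 6096 genes were at background. A probe set's signal also depends on how well its probes bind, so a rank is a rank of signals and not of RNA molecules. A signal under the line does not show absence: Rps16, which encodes a ribosomal protein found in every cell, was listed at 0.0838 and 0.0685.

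**Figure D1:**
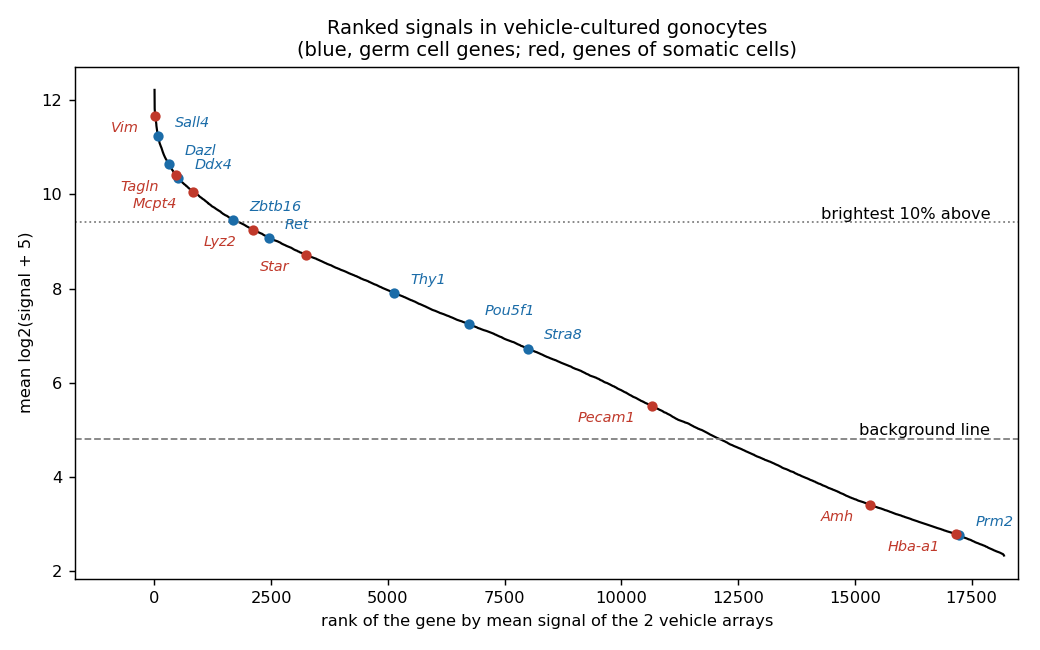
Mean log2(signal + 5) of the 2 vehicle arrays (y axis) against the rank of each of 18193 genes (x axis), with the background line at 4.81 and the brightest 10% beginning at 9.41. Germ cell genes (blue) and genes of somatic cells (red) are both found from the brightest 10% down to background.

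The arrays ordered genes alike. Pearson's r across genes was 0.983 over all of them, 0.917 within the brightest 10%, 0.950 in the middle and 0.769 at background; genes are not independent replicates. Trimmed mean signals were 125 on both arrays, while the median gene had 75.7 and 68.9. Of the 1819 brightest genes, 1616 (88.8%) were among the brightest 1819 of each array alone. A difference past 2-fold on the log2(signal + 5) scale was seen in 596 genes (3.28%), in 298 of those above the line (2.46%) and in 6 of the brightest 10%. The brightest genes were higher on replicate 2 by a median of 0.10 (log2) over the brightest 10% and 0.30 over the brightest 100, while middle genes were lower by a median of -0.10. Control transcripts from a bacterium and a phage, added to each hybridisation, also differed, the 3' probe set for bioB reading 261 and 372 and that for cre 3848 and 5527. Whether the shift of the brightest genes goes with these controls was not tested.

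The ranking opened with genes of general cell function. Galectin-1, Lgals1, a sugar-binding protein made by many cell types, was first at 4157 and 5433. Ferritin heavy chain, Fth1, which stores iron, was second at 3255 and 4401. Rps28, a protein of the small ribosomal subunit, was at rank 3 with 3309.7 and 4187. Genes with Rps or Rpl symbols of the ribosomal list made up 13 of the 30 brightest genes and 30 of the brightest 100. Among the others of the first 30 were the cytoskeletal genes Actb, Cfl1, Tmsb4x and Vim and the chaperone genes Hspa8, Naca and Nap1l1. The redox genes Sod1 and Txn1, Tpt1 and Eef1b2 of the translation factor list, and Rbbp4, Mrfap1 and Ran were there too. Rps3a1, at rank 16, also encodes a ribosomal protein, but its symbol was not taken into the ribosomal list. All 30 had a higher signal on replicate 2 as deposited. After quantile normalisation of both arrays 14 of the 30 did, and the median difference of the ribosomal list went from 0.25 (log2) to -0.03.

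Promoters differed by band in a feature that the ranking did not use. RefSeq promoter windows on GRCm38.p6, from 250 bases before to 50 after the first listed start, were at hand for 14452 of the 18193 genes. A window was called CpG-rich when its CG pairs were at least 0.6 of the number its base composition gives and its GC content was at least 50%. Such windows made up 80.4% in the brightest 10%, 67.2% in the middle and 22.5% at background, against 54.1% of all ranked genes. The 6-base match TATAAA, on either strand, was in 7.20%, 7.25% and 15.4% of windows respectively, against 9.87% of all ranked genes. From the brightest to the dimmest of 10 equal bins of the ranking the CpG-rich share went from 80.4% to 11.3% and the TATAAA share from 7.20% to 19.06%. Shares across genes describe these genes and were not tested.

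**Figure D2:**
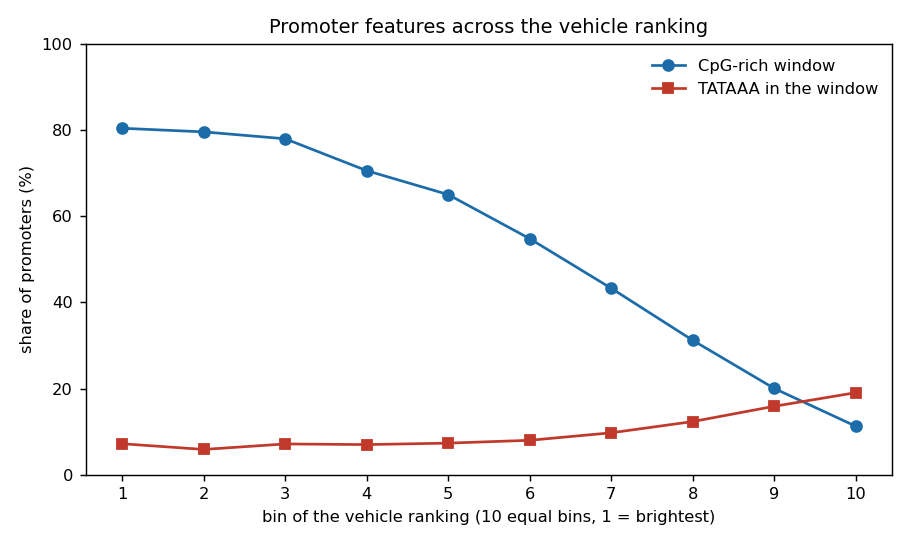
Share of promoter windows (y axis, %) that were CpG-rich (blue circles) or held TATAAA (red squares) in each of 10 equal bins of the vehicle ranking (x axis, 1 = brightest). The CpG-rich share was 80.4% in the first bin and 11.3% in the last.

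The bases before the start are printed for 1 ribosomal, 1 germ cell, 1 stromal and 1 spermatid gene, to show what stood behind these shares. Each runs 5' to 3' on the gene's strand, with CG pairs and any TATAAA that reads in this direction in capitals, from RefSeq on GRCm38.p6. Rps28 (chr17:33824563-33824812, minus strand) has 19 CG pairs in these 250 bases. Dazl (chr17:50293621-50293870, minus strand) has 20. Col3a1 (chr1:45311288-45311537, plus strand) has 0 and shows TATAAA. Prm2 (chr16:10792106-10792355, minus strand) has 2, and its TATAAA reads on the other strand.
Rps28: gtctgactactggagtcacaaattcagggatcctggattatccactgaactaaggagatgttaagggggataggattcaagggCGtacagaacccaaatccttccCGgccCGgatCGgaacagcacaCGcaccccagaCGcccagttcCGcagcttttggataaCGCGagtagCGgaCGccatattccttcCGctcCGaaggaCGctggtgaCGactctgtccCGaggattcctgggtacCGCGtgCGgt
Dazl: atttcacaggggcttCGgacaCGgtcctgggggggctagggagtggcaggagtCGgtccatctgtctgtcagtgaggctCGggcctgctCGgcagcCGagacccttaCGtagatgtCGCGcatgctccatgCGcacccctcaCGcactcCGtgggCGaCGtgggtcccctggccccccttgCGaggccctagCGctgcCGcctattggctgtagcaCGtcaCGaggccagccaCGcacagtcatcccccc
Col3a1: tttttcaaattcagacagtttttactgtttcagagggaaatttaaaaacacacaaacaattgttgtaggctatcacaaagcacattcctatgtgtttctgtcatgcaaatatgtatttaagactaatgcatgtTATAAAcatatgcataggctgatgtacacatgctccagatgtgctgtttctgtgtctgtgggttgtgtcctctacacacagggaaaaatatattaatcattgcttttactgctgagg
Prm2: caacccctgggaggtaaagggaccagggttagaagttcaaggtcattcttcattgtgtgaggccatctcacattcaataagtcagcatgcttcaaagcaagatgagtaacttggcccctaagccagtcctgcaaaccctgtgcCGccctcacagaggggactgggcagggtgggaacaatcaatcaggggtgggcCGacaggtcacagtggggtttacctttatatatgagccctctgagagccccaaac

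Germ cell genes ran from rank 80 down to the background. Over 9 germ cell lists, 163 genes were measured: 28 were in the brightest 10%, 102 in the middle and 33 at background, so that 79.8% lay above the line against 66.5% of all genes. Their median percentile was 66.2, where 50 is the median of all genes. Of the 33 at background, 20 belonged to the list of spermatid genes.

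Of 17 measured genes of germ cell identity, 15 lay above the line and 5 in the brightest 10%. Dazl, an RNA-binding protein that germ cells need to form, had signals of 1606 and 1603, nearly equal on both arrays. Ddx4, the germ cell RNA helicase also called mouse vasa homolog, read 1305 and 1289. Mael, which acts in transposon silencing, read 1645 and 1351. Trim71, a regulator of messenger RNA in stem cells and early germ cells, followed at 1149 and 1038, and Elavl2, a neuronal and germ cell RNA-binding protein, was the last of this list in the brightest 10% at 800.4 and 616. Genes known from the start of the germ line were found at several levels. Prdm1, a transcription repressor that starts the germ line, read 81.6 and 53.3, in the middle. Prdm14, which acts beside it, read 24.2 and 16.4 and Sox17, also a factor of endoderm and vessels, 8.66 and 7.001, both at background. Dppa3, known from oocytes and primordial germ cells, lay just above the line at 40.3 and 12.6, above it on replicate 1 and below it on replicate 2. Nanos2 and Nanos3 are not analysed here. The label of germ cells therefore had its markers in these RNAs, and 1 of the 17 read higher on replicate 2.

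Genes of the piRNA pathway, in which small RNAs guide PIWI proteins to silence transposons, were nearly all above the line, 19 of 20. Piwil2, the PIWI protein present from the fetal testis on, was at rank 186 with 1929.7 and 1826. Piwil4, the PIWI protein that enters the nucleus of fetal and newborn gonocytes, read 557 and 735. Piwil1, which is known from meiotic and later cells, read 98.7 and 58.6. The helicase Mov10l1, which starts piRNA processing, had 808 and 748. Among Tudor-domain partners the signals ran from Tdrd9 at 547 and 291 to Tdrd1 at 62.4 and 46.4. Henmt1, which methylates the ends of piRNAs, lay under the line by its mean but differed between arrays, with 43.1 and 10.5.

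All 18 measured regulators of spermatogonial self-renewal lay above the line, and their median percentile was 86.0. Sall4, a zinc-finger factor of pluripotent and germ cells, was the highest germ cell gene of all lists, at rank 80 with 2268 and 2530.4. Id4, an inhibitor of helix-loop-helix factors that marks stem spermatogonia, read 1167 and 1067. Etv5, an ETS factor needed to keep the stem cell pool, read 832 and 819.7. Zbtb16, also called Plzf, read 701 and 699, and Dmrt1, a factor of the male germ line and of Sertoli cells, 878 and 569. Both parts of the GDNF receptor on these cells were in the upper middle: Gfra1 read 520.4 and 570.3 and Ret 514 and 562. Lowest were Eomes at 47.7 and 35.6 and Pax7, which marks a rare subset of spermatogonia, at 48.7 and 31.1, both still above the line on both arrays.

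The list of surface proteins used to sort stem spermatogonia had the highest median percentile of the germ cell lists, 90.9. Of its 15 genes 8 were in the brightest 10% and all lay above the line. The lowest of them, Melk, a kinase gene and not a surface protein, read 186 and 179. Cd24a led at 1975 and 2051. Itga6, the laminin receptor subunit on stem spermatogonia, read 1021 and 1205. Cd9, a tetraspanin, read 1018 and 1049, Cdh1, E-cadherin, 964 and 852, and Epcam 859 and 677. Thy1 itself, the protein of the sort, was in the middle at rank 5137 with 329 and 168, lower on replicate 2. Many of these proteins are also carried by other cell types.

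Genes of differentiating spermatogonia had a median percentile of 59.5, and 12 of 14 lay above the line. Ccnd2, a cyclin known from the gonocyte to spermatogonium step, was highest at 1347 and 1344. Kit, the receptor of differentiating spermatogonia and also of mast cells, read 82.99 and 188, past 2-fold higher on replicate 2. The 12 mast cell genes were also all higher there, with summed signals of 5579 and 11964, and their part in the Kit signal was not tested. Stra8, a gene that retinoic acid is known to raise before meiosis, read 188 and 53.3 in these cells without added RA, past 2-fold lower on replicate 2. Sohlh1, a helix-loop-helix factor of early differentiation, read 146 and 97.3. Neurog3, known from spermatogonia about to differentiate, was at background with 1.93 and 3.10.

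Of 23 meiosis genes 20 lay above the line, although gonocytes do not undergo meiosis, with a median percentile of 74.1. Tex12, a part of the synaptonemal complex that joins paired chromosomes, was in the brightest 10% with 836 and 673. Sycp3, the main axis protein, read 794 and 533, and Sycp1, the central filament, 467 and 384. Of the recombination genes the strand exchange protein Dmc1 read 132 and 153, and Spo11, which cuts DNA to start recombination, 84.7 and 66.97. The cohesin subunit Rec8 read 68.6 and 29.96. Meiob, Msh5 and Prdm9, a methyltransferase that places recombination sites, were at background, Prdm9 with 3.14 and 5.50.

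Spermatid genes were the low end of the germ cell lists, with 5 of 25 above the line, none in the brightest 10% and a median percentile of 15.7. The protamine gene Prm2, which packs sperm DNA, read 2.30 and 1.30, and the histone variant gene Hils1 0.341 and 0.650. Prm1 read 34.9 and 47.3 and the transition protein gene Tnp1 61.6 and 41.5, above the line on both arrays. Odf2, which also serves centrioles of dividing cells, was highest at 374 and 387. With vehicle replicate 2 left out, 8 of these 25 genes lay above the line, in place of 5.

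Promoters of these late genes also differed. Windows were CpG-rich for 1 of 21 spermatid genes with a window, against 12 of 19 meiosis genes and 8 of 11 genes of germ cell identity. The E-box CACGTG, a palindrome and so the same on both strands, was in 13 of 46 windows (28.3%) of the germ cell identity, piRNA and meiosis lists together, against 9.02% of ranked genes and 7.24% of all 27025 genes with a window. Within CpG-rich windows the counts were 10 of 28 (35.7%) against 11.6%. The E2F-type match TCCCGC, on either strand, was in 18 of the 46 (39.1%) against 29.8%. CACGTG was in 36.4% of the 11 windows of germ cell identity genes, and in the same share of the 11 windows of translation factors. Joining these lists was chosen after the values were seen, so the shares are a description. A match is a stretch of letters, and no binding was measured. For 6 of the 13 genes, chosen as the 4 in the brightest 10% and 2 of the middle, the 30 bases around the match are printed 5' to 3' on the gene's strand with the match in capitals, from RefSeq on GRCm38.p6. They lie at chr13:112652322-112652351 (minus) for Ddx4, chr1:166238950-166238979 (minus) for Mael, chr15:88982744-88982773 (plus) for Mov10l1, chr9:50561344-50561373 (minus) for Tex12, chr10:88459511-88459540 (plus) for Sycp3 and chr6:49395472-49395501 (plus) for Stk31. Sycp3 has 2 matches, of which 1 is printed, and each of the other 5 has 1. The first base of the printed match was -29 from the start for Ddx4, -223 for Mael, -246 for Mov10l1, -93 for Tex12, -64 for Sycp3 and -55 for Stk31.
Ddx4: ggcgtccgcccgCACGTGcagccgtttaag
Mael: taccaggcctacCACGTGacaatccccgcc
Mov10l1: ccttCACGTGctaaccgccaacctctcgtg
Tex12: ccgcgagactgtCACGTGgctcgcgcgctg
Sycp3: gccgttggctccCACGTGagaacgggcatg
Stk31: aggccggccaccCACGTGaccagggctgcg

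Factors of pluripotency and of primordial germ cells were spread over the ranking, 20 of 26 above the line with a median percentile of 59.0. Klf4, known from reprogramming, read 762 and 791 in the brightest 10%. Pou5f1, also called Oct4, was in the middle with 172 and 125, and Sox2 read 168 and 123. Nanog lay just over the line at 31.3 and 24.2. Dppa4 and Dppa2, small chromatin proteins of stem cells, read 716 and 507 and 489 and 330.0 respectively. The ligand gene Nodal was at background with 9.30 and 4.65, as was Lefty1, an inhibitor of Nodal, with 3.87 and 8.28.

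Genes that write, keep or remove DNA methylation were above the line in 14 of 14 cases. Dnmt1, which copies methylation after replication, read 1283 and 1423, and its partner Uhrf1 1007 and 1216. Dnmt3a, a methyltransferase of new sites, read 895 and 645, and Dnmt3b 360.0 and 335. Dnmt3l, their germ cell cofactor, read 296 and 96.5, past 2-fold lower on replicate 2. Among the TET oxidases Tet2 read 352 and 349.8, Tet1 115 and 115 and Tet3 32.5 and 45.1. Imprinted genes, expressed from 1 parental copy in body cells, were bright in part, with 9 of 26 in the brightest 10% and 22 above the line. Grb10, a growth factor receptor adaptor, led at 1741 and 2231, and the fetal growth factor Igf2 read 803 and 1043. Snrpn was at background with 12.4 and 16.4.

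The Y chromosome gene Uba1y read 849.5 and 900.4 and Eif2s3y, which is needed for spermatogonia to multiply, 674 and 677. Xist, the RNA that silences 1 X chromosome in females, lay just under the line with 16.9 and 29.96, and the testis-determining gene Sry was at background with 10.6 and 13.5. By chromosome the share of genes above the line ran from 61.6% on chromosome 6 and 61.8% on chromosome 7 to 72.4% on chromosome 19 among the autosomes. It was 7 of 9 genes (77.8%) on the Y chromosome and 66% on the X chromosome, close to the 66.5% of all genes.

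Genes of somatic cells were also found above the line in these sorted cells. Over 9 lists of somatic markers, 118 genes were measured: 22 were in the brightest 10%, 67 in the middle and 29 at background, so that 75.4% lay above the line against 66.5% of all genes. Their median percentile was 53.3, near the 50 of all genes. Genes of other organs, such as liver, brain and muscle, give a measure of what unrelated markers read: 8 of 32 lay above the line (25%), none in the brightest 10%, and 5 of 32 with vehicle replicate 1 left out.

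**Figure D3:**
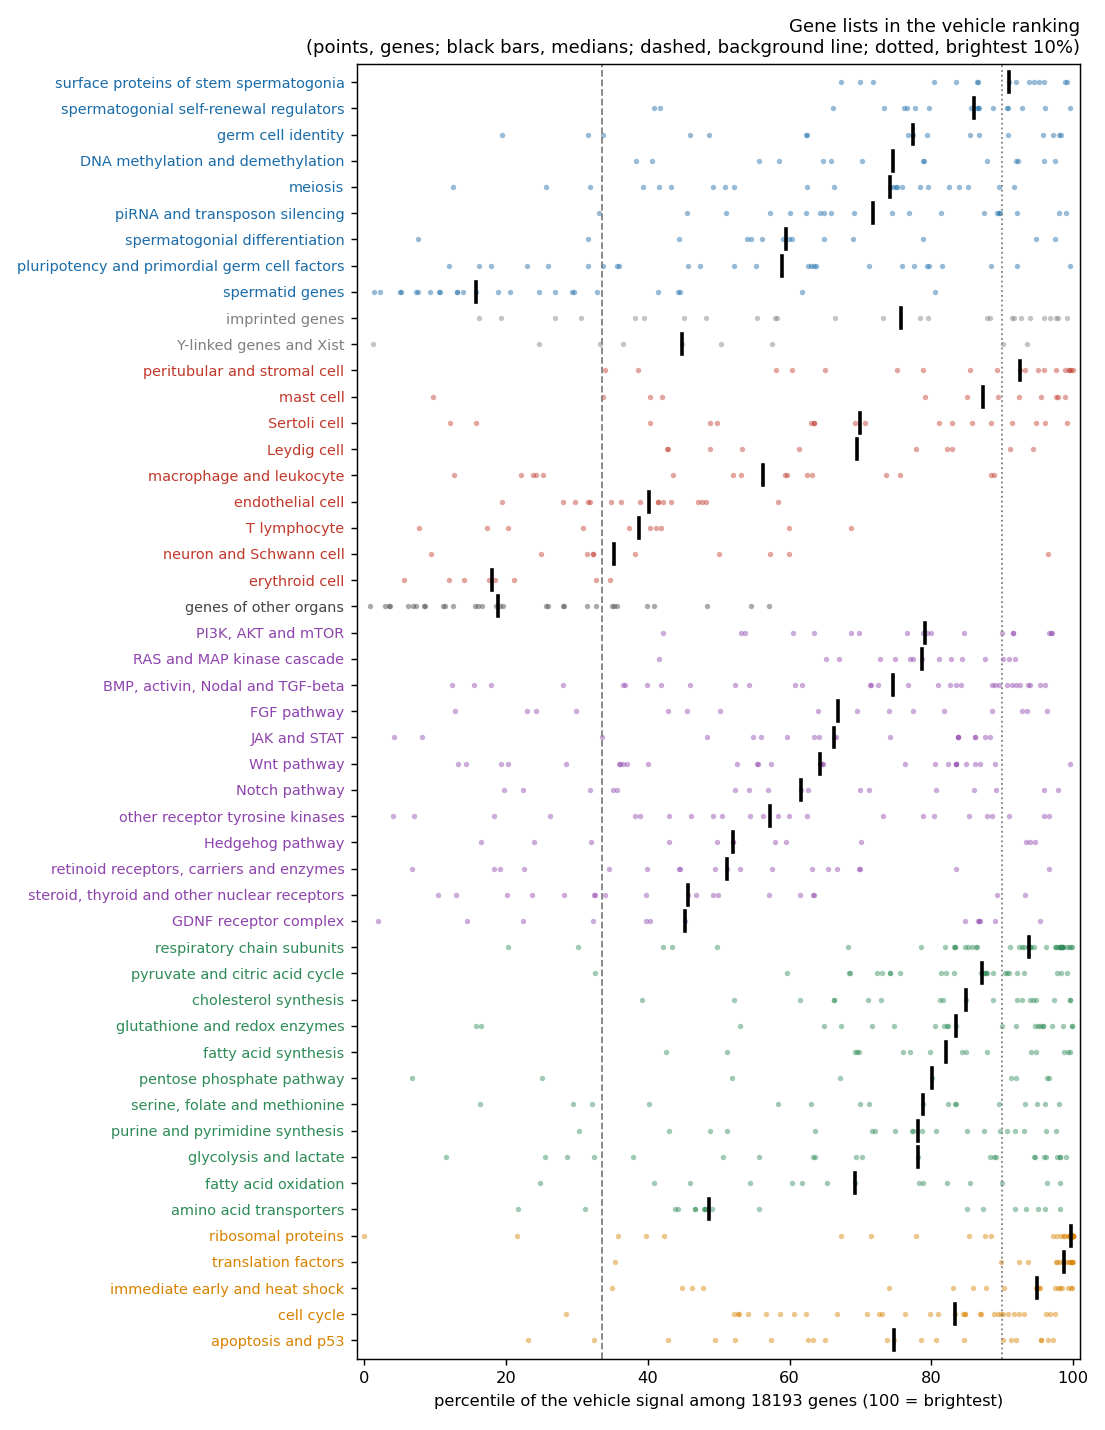
Percentile of each gene's vehicle signal among 18193 genes (x axis, 100 = brightest) for 49 gene lists (y axis), with a point per gene and a black bar at the median. Ribosomal proteins (median 99.7) stand at the top end, and spermatid genes (15.7) and genes of other organs (18.8) at the low end.

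Genes of peritubular and stromal cells had a median percentile of 92.4, the highest of the somatic lists by the mean of both arrays, with 19 of 19 above the line and 10 in the brightest 10%. Vim, the intermediate filament of mesenchymal cells, was at rank 17 with 2883 and 3672. Col3a1, a fibrillar collagen, read 2245 and 2869.8, and Col1a2, another, 1944 and 2468. Acta2, the smooth muscle actin of peritubular cells, read 2059 and 2467. Of its 3 probe sets this 1 alone lay above the line, and the dimmest read 8.77 and 11.1. Pdgfra, the growth factor receptor of interstitial progenitors, read 927 and 1314. Of smooth muscle genes in the middle, Myh11 read 175 and 150.3, Des 205 and 79.9 and Cnn1 56.8 and 18.1; Des and Cnn1 were past 2-fold lower on replicate 2. None of the 11 windows at hand for this list was CpG-rich, as the Col3a1 bases above show for 1 of them.

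Mast cell genes had a median percentile of 87.2, and their order against the stromal list turned between arrays: 78.1 against 90.9 on replicate 1 and 94.2 against 92.3 on replicate 2. Of the mast cell genes 11 of 12 lay above the line, 8 of them on both arrays, and 5 in the brightest 10%. Mcpt2, a mast cell protease, read 1258 and 2673. Cma1, mast cell chymase, read 1033 and 2071, and Mcpt4, another chymase, 757 and 1487. Tpsb2, a tryptase, read 855 and 2149, and Cpa3, the mast cell carboxypeptidase, 393 and 1073. Hdc, which makes histamine, read 668 and 956. Of the IgE receptor chains Ms4a2 read 22.96 and 74.9 and Fcer1a, at background, 1.22 and 5.84. All 12 read higher on replicate 2, and their summed signal was 5579 on replicate 1 and 11964 on replicate 2. When a gene could be represented solely by probe sets without the _a, _s or _x mark, which flags probes shared between transcripts, 6 of the 8 mast cell genes left lay above the line and the median percentile was 45.3. In the ranking described here Cma1, Tpsb2, Mcpt4, Tpsab1 and Hdc were represented by marked probe sets.

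Macrophage and leukocyte genes were in the middle or lower, with 11 of 16 above the line and none in the brightest 10%. Their share above the line was near the 66.5% of all genes. Lyz2, lysozyme, read 426 and 857, Csf1r, the macrophage growth factor receptor, 92.7 and 218, and Ptprc, the leukocyte antigen CD45, 85.02 and 179. All 16 read higher on replicate 2, with summed signals of 1894 and 3515. T lymphocyte genes, whose cells carry THY1, had 6 of 10 above the line, a share below the 66.5% of all genes, and a median percentile of 38.8: Il7r read 127 and 304, Cd3e 34.4 and 50.8 and Cd4 2.25 and 2.81. Of 13 listed erythroid genes 8 were measured, and 7 of these were at background. The other, Alas2, read 31.4 and 19.99, above the line by its mean but below it on replicate 2. The alpha globin gene Hba-a1 read 0.801 and 3.19. The 5 listed genes without a measure are not analysed here.

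Leydig cell genes, for making testosterone, were above the line in 10 of 10 cases. Cyp11a1, the first enzyme of steroid synthesis, read 699.6 and 1308, Star, which brings cholesterol into mitochondria, 335 and 521, and Cyp17a1 29.3 and 64.9. Of the 10 genes, 9 read higher on replicate 2. Of 18 Sertoli cell genes 16 lay above the line. Clu, clusterin, was highest at 1744 and 2319. Sox9, the Sertoli cell determining factor, read 446 and 424, Wt1, a gonadal transcription factor, 238 and 207, and Kitl, the ligand of KIT, 528 and 689. Amh and Fshr, a hormone and a hormone receptor of immature Sertoli cells, were at background, with 1.66 and 11.9 and 3.21 and 5.02 respectively. Endothelial genes had 11 of 16 above the line, a share near the 66.5% of all genes, and none in the brightest 10%. Pecam1 read 50.9 and 32.2 and Kdr 28.9 and 39.1. In the list of neuron and Schwann cell genes 5 of 10 lay above the line, a share below the 66.5% of all genes. Uchl1, a deubiquitinase that gonocytes and spermatogonia also carry, led them at 1190.0 and 1159. With vehicle replicate 2 left out, 8 of the 10 lay above the line, as did 12980 of all 18193 genes.

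**Figure D4:**
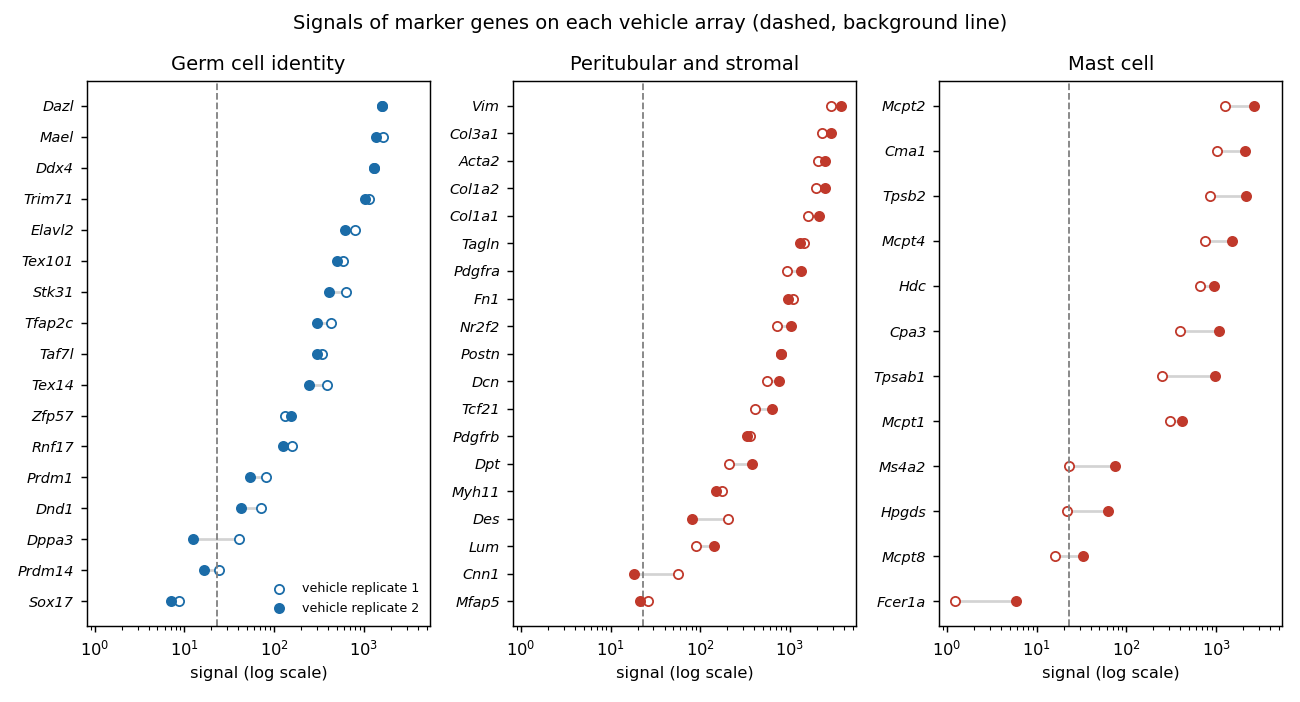
Signal on a log axis (x) of each gene (y) of the germ cell identity, peritubular and stromal, and mast cell lists on vehicle replicate 1 (open circles) and replicate 2 (filled circles), with the background line at 23.0. All 12 mast cell genes read higher on replicate 2, as did 1 of 17 germ cell identity genes.

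The difference between the control arrays varied by list. Of all genes above the line, 42.8% read higher on replicate 2. Of list members above the line, 1 of 15 germ cell identity genes, 2 of 19 piRNA genes, 2 of 20 meiosis genes and 4 of 18 self-renewal regulators did so, with median differences of -0.33, -0.39, -0.45 and -0.28 (log2, replicate 2 minus replicate 1). By contrast 11 of 11 mast cell genes, 11 of 11 macrophage genes, 9 of 10 Leydig cell genes and 12 of 16 Sertoli cell genes read higher on replicate 2, with medians of 1.08, 0.95, 0.76 and 0.44. Stromal genes had a median of 0.34 with 12 of 19 higher, and endothelial genes a median of -0.02 with 5 of 11 higher. Other lists did not follow their group: surface proteins had 8 of 15 higher with a median of 0.04 and DNA methylation genes 7 of 14 with 0.02, while 0 of 5 neuron and Schwann cell genes were higher, with -0.13. After quantile normalisation the medians were -0.32, -0.42, -0.38 and -0.29 for the first 4 of these lists and 0.87, 0.94, 0.75 and 0.40 for the mast, macrophage, Leydig and Sertoli lists, while the stromal median went from 0.34 to 0.04. The germ cell identity, piRNA, meiosis and self-renewal lists and the mast, macrophage and Leydig cell lists thus differed in opposite directions between the samples, and the part of either in any other difference between the arrays was not tested. Lower readings on replicate 2 were not particular to these germ cell lists. Of members above the line, 2 of 8 genes of other organs were higher there, with a median of -0.44 (-0.45 after quantile normalisation). Pluripotency factors had 5 of 20 higher with -0.46 and spermatid genes 2 of 5 with -0.52. The 6 genes above the line with the largest difference towards replicate 2 were Mmp12, Krt14, Ms4a6d, Clec4n, Tarbp2 and Pdgfd. Of the 2 probe sets of Tarbp2, both above the line, the brightest read 113 and 525 and the other 133 and 124. Mmp12, the macrophage elastase, differed most, with 13.9 and 105, and Clec4n, a receptor of macrophages and dendritic cells, read 34.95 and 174. Towards replicate 1 they were B3galt6, Barhl2, Hoxa10, Myh2, Tmem87a and Mmp3, with B3galt6, an enzyme of proteoglycan synthesis, first at 129.9 and 12.5.

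**Figure D5:**
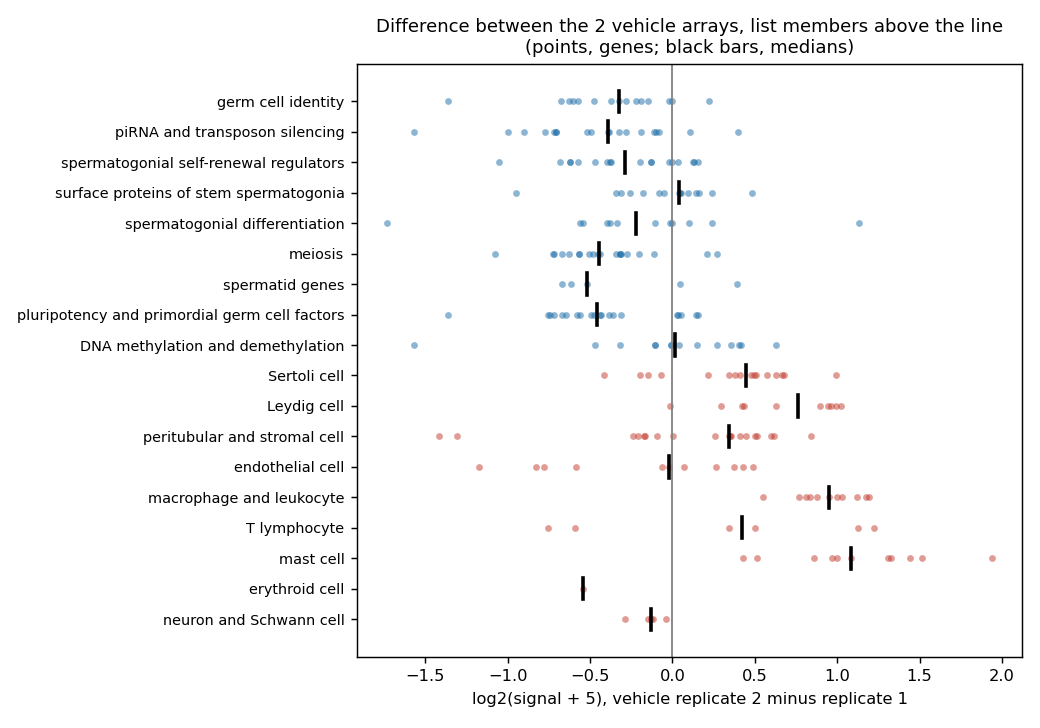
Difference in log2(signal + 5) between vehicle replicate 2 and replicate 1 (x axis) of list members above the line (points) for germ cell (blue) and somatic (red) lists (y axis), with black bars at the medians. Medians were -0.33 for germ cell identity and 1.08 for mast cell genes.

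Signalling genes lay mostly in the middle. Of 234 measured, 31 were in the brightest 10%, 162 in the middle and 41 at background. Above the line lay 82.5% of them, against 66.5% of all genes. Of the GDNF receptor complex, Gfra1 and Ret are given above, and their coreceptor Ncam1 read 1026 and 1075. Gdnf, the ligand that Sertoli cells make, read 39.8 and 35.4. The related ligands Nrtn and Pspn were at background, Nrtn with 9.67 and 1.94. Of the kinases that pass the RET signal on, Yes1 read 580.4 and 679 and Fyn 596 and 507.

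Of 16 FGF pathway genes 12 lay above the line. Highest were Spry2, an inhibitor that the pathway itself induces, at 1079 and 1230.3, Spred1, another inhibitor, at 811 and 951, and the ETS factor Etv5, given above. Dusp6, a phosphatase of ERK, read 596 and 622, and the inhibitors Spry1 and Spry4 lay near the median of the list with 194 and 224 and 128 and 186 respectively. Among the receptors Fgfr2 read 401 and 416, Fgfr1 350.1 and 294 and Fgfr4, at background, 15.4 and 8.62. Fgf2, Fgf4 and Fgf8 were at background, and Fgf9 read 54.5 and 53.6. Inside the cell, 15 of 15 genes of the RAS and MAP kinase cascade lay above the line, from Ptpn11, a phosphatase that activates it, at 754 and 764 to Nf1, which switches RAS off, at 34.3 and 48.7. All 18 PI3K, AKT and mTOR genes did so as well. Ddit4, an mTOR inhibitor that stress raises, led at 1243 and 1307, and Foxo3, a factor that AKT keeps out of the nucleus, read 1163 and 1339. Of the other receptor tyrosine kinases Ddr1, a collagen receptor, read 1004 and 1409, Igf1r 632 and 586, Erbb3 672 and 513 and Erbb4, at background, 1.65 and 1.15.

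In the BMP, activin and TGF-beta family 28 of 32 genes lay above the line and 8 in the brightest 10%. The activin receptor Acvr2a read 759.8 and 1117, the BMP receptor Bmpr2 708 and 905 and the BMP relay Smad1 951 and 1158. Smad4, the partner shared by all these relays, read 860.4 and 921. Bmp4, a ligand, read 174 and 98.9, and the inhibitor Nog was at background with 2.75 and 5.85. In the Wnt list 24 of 29 lay above the line. Ctnnb1, beta-catenin, which serves both Wnt signalling and cell adhesion, was at rank 79 with 2132 and 2694, and the target gene Axin2 read 159 and 159.8. The ligand Wnt5a read 402 and 361, while Wnt3a was at background with 6.95 and 8.43.

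Of 13 Hedgehog genes 10 lay above the line. Ptch1, a receptor and a target of the pathway, read 1023 and 925, and the factor Gli3 904 and 815, both in the brightest 10%, while Gli1, another target, was at background with 12.7 and 10.3. Dhh, the ligand of Sertoli cells, read 65.9 and 77.4. Of Notch genes 14 of 17 lay above the line: Notch2 led the receptors at 1318 and 1596, and Notch4 was at background with 24.03 and 17.03. Of JAK and STAT genes 16 of 19 lay above the line and none in the brightest 10%. Il6st, the receptor chain gp130, was highest at 579 and 624, and Socs1 was at background with 5.73 and 0.479.

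Of 19 measured genes for retinoid receptors, carriers and enzymes 15 lay above the line, with a median percentile of 51.2. Aldh1a1, which makes retinoic acid, was in the brightest 10% with 968 and 1489, and Aldh1a2 read 193 and 162. Crabp1, a carrier of retinoic acid, read 532 and 376. Cyp26b1, which breaks retinoic acid down, read 69.4 and 85.5 and Cyp26a1 30.9 and 19.9. Of the receptors Rxrb read 194 and 234, Rxra 233 and 192 and Rarg 50.7 and 50.2, while Rara and Rarb were at background with 14.3 and 3.21 and 14.9 and 6.56 respectively. Of 19 other nuclear receptors 12 lay above the line, a share below the 66.5% of all genes. The glucocorticoid receptor gene Nr3c1 read 661 and 618, and Esr2 was at background with 0.811 and 7.20.

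Metabolic genes were the brightest of the 4 main groups: of 228 measured, 86 were in the brightest 10%, 124 in the middle and 18 at background. Above the line lay 92.1% of them, against 66.5% of all genes. Respiratory chain subunits had 26 of 42 in the brightest 10% and a median percentile of 93.7. Uqcrb, a subunit of complex III, read 2486 and 3197, Cox7a2, of complex IV, 2283 and 2711, and Atp5a1, of ATP synthase, 1603 and 1812. Cox7a1, a subunit known from muscle, read 66.6 and 32.02, and Cox4i2, known from lung, was at background with 10.05 and 6.97. In the citric acid cycle 25 of 26 lay above the line, led by Mdh2, malate dehydrogenase, at 1830.2 and 2119.8 and Cs, citrate synthase, at 1544 and 1657.

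Of 23 glycolysis genes 19 lay above the line and 8 in the brightest 10%. Aldoa, aldolase A, led at 1642 and 2066, and Pkm, the widely used pyruvate kinase, read 1396 and 1706, while the liver form Pklr was at background with 12.6 and 13.2. Likewise Pgam1 read 1349 and 1705 and the muscle form Pgam2 2.49 and 5.51. Slc2a1, the widespread glucose transporter, read 1079 and 1195, and Slc16a1, a lactate carrier, 972 and 970.4. From probe sets without the _a, _s or _x mark, 9 of the 16 glycolysis genes left lay above the line, in place of 19 of 23. Their median percentile was 51.1 in place of 78.0.

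All 19 cholesterol genes and all 16 fatty acid synthesis genes lay above the line. Hmgcs1, an early enzyme of the sterol pathway, read 2193 and 2794, and Insig1, a sensor that holds the pathway back, 2341 and 2578. Acly, which makes acetyl-CoA for lipids, read 2244 and 2537, Elovl5, a fatty acid elongase, 2082 and 2106, and Fasn, fatty acid synthase, 509 and 462. Of 15 genes of fatty acid oxidation 14 lay above the line, led by Hadh at 1349 and 1735. Redox genes had 11 of 23 in the brightest 10%. Sod1, superoxide dismutase, was at rank 20 with 2922 and 3456, and Txnrd1, thioredoxin reductase, read 899 and 1799.

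Of 17 genes of serine, folate and methionine use 14 lay above the line, and of 20 genes of purine and pyrimidine synthesis 19 did. Psat1, an enzyme of serine synthesis, read 1507 and 1509, Phgdh, the first enzyme of that route, 836 and 871, and Mthfd2, a mitochondrial folate enzyme, 764 and 561. Ctps, which makes cytidine nucleotides, led its list at 1598 and 1171, and Rrm2, a subunit of ribonucleotide reductase, read 797 and 889. Of the pentose phosphate pathway 7 of 9 lay above the line, with Pgd at 1093 and 1330.4. Amino acid transporters had the lowest median percentile of the metabolic lists, 48.6, though 5 of 18 were in the brightest 10%. Slc7a1, the arginine and lysine carrier, read 1422 and 1674, and Slc7a11, the cystine carrier, 41.98 and 81.1.

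Ribosomal proteins, translation factors, the cell cycle, the heat shock and immediate early response, and apoptosis were covered by 137 genes, of which 132 lay above the line and 77 in the brightest 10%. Ribosomal proteins had 37 of 48 there and a median percentile of 99.7. The list of translation factors had 14 of 16 there, with Tpt1 its brightest member at 2830.0 and 3837. Rpl37 and Rps16 were the ribosomal genes under the line. Of 33 cell cycle genes 32 lay above it. Pcna, the replication clamp, read 1224 and 1206, Mki67, a protein of cycling cells, 568 and 682, and Cdk1, the mitotic kinase, 555 and 551. Inhibitors of the cycle lay above it too: Cdkn1b read 582 and 763 and Cdkn1a, a p53 target, 597 and 762. Heat shock and immediate early genes had 12 of 20 in the brightest 10%. Hspa1b, an inducible chaperone, read 1482 and 1771, Egr1 1516 and 1538 and Fos 1109 and 929. The lowest of this list were Hspa1a at 56.4 and 46.8 and Junb, close to the line, at 25.8 and 25.8. Of genes for apoptosis and the p53 response 19 of 21 lay above the line, with Mcl1, a survival protein, highest at 1096 and 1489 and Mdm2, which degrades p53, at 1182 and 1187.

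Protein-coding genes and long non-coding RNAs differed in how often they were seen. Of 16465 protein-coding genes 71.4% lay above the line, and of 1355 long non-coding RNA genes 17.9%, or 243. Malat1, a nuclear RNA of most cells, was the brightest of the latter at 2025 and 2471. The number of probe sets differed by band. In all 9010 genes had more than 1 probe set, of which 7474 lay above the line, and in 3296 of these (44.1%) every probe set did. The median gap between the brightest and dimmest probe set of those 7474 genes was 2.81 (log2). Genes of the brightest 10% had a median of 3 probe sets, middle genes 2 and background genes 1. The ranking rule itself favours this order, since the brightest of a gene's probe sets was taken. Close to the line, Mfap5, Mcpt8 and Dppa3 were the nearest list genes above it and Stat4, Xist and Henmt1 the nearest below; Mcpt8 read 16.04 and 33.2 and Stat4 28.4 and 18.5, on opposite sides of the line on different arrays.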

How the data were processed

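RNA of the THY1-sorted gonocytes was amplified with the Ovation RNA Amplification System version 2 and hybridised to Mouse Genome 430 2.0 arrays, 1 sample to an array, per the labels' protocols. Images were quantified with GCOS version 1.2, per the labels' protocols. The deposited values are intensity signals per probe set on a linear scale; how the authors combined probes and scaled arrays was not given in sources used here, and a trimmed mean of 125 on both vehicle arrays was found in the values. No genome build is involved in the signals.

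Of 45101 probe sets, 64 controls were left out; of the other 45037, 34945 name 1 gene, 932 several and 9160 none, by the platform's annotation, with symbols updated through gene IDs for 34741. The log2(signal + 5) of the brightest probe set naming a gene alone gave 18193 genes. No fold or p-value was tested: counts by band, medians and the values of both arrays describe 1 group with 2 samples, and their number limits the precision. The members, the 48 gene lists and the ribosomal list, taken by symbol, were chosen with earlier results of these data known; 924 of 1011 listed genes were measured. Genes named were the 30 brightest; in each list the 4 highest, the 2 nearest the median and the 2 lowest; Ddx4, Dazl, Thy1, Pou5f1, Kit, Ret, Gfra1, Zbtb16, Stra8, Xist and Actb whatever their level (Nanos2, Nanos3, Ddx3y and Gapdh, also on that list, are not analysed here); the 6 above the line with the largest difference between arrays each way; and the 3 list genes nearest the line on each side. Not all of these are given values, and others are examples chosen after their values were seen. Promoter windows are those of RefSeq, GRCm38.p6, with the first listed start of a gene. A comparison of protein length was planned and not run. Alternatives changed the pseudocount, normalisation, probe set choice, line and arrays. On simulated arrays 97.3% to 97.8% of genes were put back in the band they were simulated in. This share checks the steps and does not measure accuracy on the real arrays. Between the real arrays the median absolute difference (log2) was 0.17 in the brightest band, 0.24 in the middle and 0.32 at background. Work was done in Python 3.11.15 with pandas 2.3.3, numpy 2.4.6 and matplotlib 3.10.9.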

Additional observations from a re-analysis of the deposited data

Results flagged for a closer look

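Probe sets outside the ranking carried signal. Of 9160 probe sets that name no gene, 2685 (29.3%) lay above the background line and 141 reached the level of the brightest 10%, the brightest reading 3324 and 4258 on the vehicle arrays. Of 932 probe sets that name several genes, 603 (64.7%) lay above the line and 203 reached that level, the brightest reading 3625 and 4510. Both were picked out because they hold signal over that of the chemosensory receptor genes in values that the ranking did not use.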

How the results depend on the processing

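No paired analysis was possible because 1 group is described and its values come from no test. The counts above the line (12097 genes; 130 germ cell, 89 somatic, 193 signalling and 210 metabolic list genes) stayed within 1.5 times under other pseudocounts, quantile normalisation, other probe set choices and other lines, the gene count running from 10473 with unmarked probe sets to 15612 with the line at the 75th percentile of the receptor genes. With no line and the brightest 20% counted instead, which by construction takes fewer genes, they were 3639 genes, 52 germ cell, 34 somatic, 76 signalling and 133 metabolic. Leaving out 1 array gave 11480 to 12980 genes, 127 to 137 germ cell, 84 to 94 somatic, 185 to 201 signalling and 210 to 216 metabolic. A rise past 1.5 times was not possible for these 4 groups, which hold 163, 118, 234 and 228 measured genes respectively. The 596 genes past 2-fold between arrays became 1757 with a pseudocount of 1 and 151 with 20, since the pseudocount shrinks differences of dim genes. Of the 49 list counts, 9 moved by over 1.5 times with unmarked probe sets, where fewer genes have one, 1 without vehicle replicate 1 (genes of other organs) and 2 without vehicle replicate 2 (spermatid genes, and neuron and Schwann cell genes). Other lines moved 4 (75th percentile), 3 (99th percentile) and 2 (40th percentile of all genes) of them, all among the spermatid, erythroid, neuron, T lymphocyte and other-organ lists; the mean of all probe sets moved 1, a probe set chosen on replicate 1 and read on replicate 2 moved 1, and counting the brightest 20% moved 40. With unmarked probe sets 25 of the 26 ribosomal genes left were above the line, in place of 46 of 48. Translation factors had 10 of 12 above it, in place of 16 of 16. Macrophage genes had 7 of 14 and endothelial genes 7 of 11, in place of 11 of 16 each. Spermatid genes had 3 of 21, in place of 5 of 25. List median percentiles moved by -41.96 to 7.004 with unmarked probe sets, by -14.4 to 13.5 when all probe sets of a gene were averaged and by -9.16 to 5.12 without vehicle replicate 2. A shift past the standard deviation between a list's medians on the 2 arrays was passed by 40 of 49 lists with averaged probe sets. With unmarked probe sets 34 lists passed it, without vehicle replicate 2 18 and without vehicle replicate 1 11. A probe set chosen on replicate 1 and read on replicate 2 gave 12. With other pseudocounts or quantile normalisation all 49 stayed within it. Dim signals limit the low end: 887 genes lay above the line on 1 array and not on the other.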
